A study of Homo sapiens with 2 samples.

Results

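The genes described here encode the machinery that carries new proteins into the endoplasmic reticulum (ER), cuts off their signal peptides and adds N-linked sugars. They are 43 genes of 26506 in the deposited tables, taken by symbol: 7 of the signal recognition particle and its receptor, 6 of the Sec61 channel and its partners, 6 of TRAP and TRAM, 5 of the signal peptidase, 11 of the oligosaccharyltransferase and 8 of the ER membrane protein complex. The genes were chosen by function, and their measured ratio between these same libraries was already known when the list was drawn up. Their ratios are therefore a description, and the choice of the list supports nothing by itself. All 43 reached 1 CPM (a count scaled to library size) in at least 1 library, so none was lost to the filter on low values.

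The libraries come from cells of the human corneal epithelial cell line ATCC CRL-11515, kept for 72 hours in 1 of 2 media before RNA was taken. The control medium was KSFM, a serum-free medium for keratinocytes, and the other was the special medium: DMEM/F12 to which fetal bovine serum (10%), EGF (10 ng/mL), CaCl2 (1 mM) and antibiotic/antimycotic had been added. For each medium, poly(A) RNA of 3 cultures was combined into 1 library, so no spread between cultures was measured, no test between media exists and no p-value is given. The KSFM library held 21604652 counts and the special medium library 16900472. The media differ in base, serum, EGF and calcium at once, and the contributions of these cannot be told apart.

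Of 4 corneal markers, the defining keratins were at or near 0, with KRT12 at 0 counts in both libraries and KRT3 at 0 and 1. PAX6 alone passed 1 CPM, at 3.20 and 4.31 CPM. Of 7 general epithelial markers 5 passed 1 CPM, while KRT14 (4 and 10 counts) and TP63 (5 and 13 counts) did not. Of 6 plasma cell markers, a cell type rich in this machinery, 4 were in the tables. JCHAIN and MZB1 each had 0 counts in KSFM against 1 in the other library, TNFRSF17 had 0 in both, and SDC1, which epithelia also express, was the 1 marker at 1 CPM or more. Of 5 goblet cell markers only AGR2 passed 1 CPM, at 319 TPM in KSFM and 70.7 TPM in the special medium, and MUC2, MUC5AC, SPDEF and TFF3 were at 12 counts or fewer. In each of the fibroblast, melanocyte, endothelial and immune lists 1 marker passed 1 CPM, and the summed TPM of each list was 0.30 to 59.6 in KSFM and 3.21 to 70.9 in the special medium. The endothelial marker that passed, CDH5, had 3 and 236 counts, 100.3-fold higher with special medium (33.9 to 490.0), and its part in the results was not tested. In such bulk libraries, fewer cells of a type and less RNA per cell cannot be told apart.

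As background, most secreted and membrane proteins are recognised while still on the ribosome by the signal recognition particle (SRP), which binds the emerging signal sequence and docks at its receptor on the ER. The chain then passes through the Sec61 channel, helped by TRAP and TRAM. Signal peptidase removes the signal sequence, and the oligosaccharyltransferase moves a preassembled sugar chain onto asparagine residues. The ER membrane protein complex inserts membrane segments that Sec61 handles poorly. In an epithelium that makes surface mucins and other glycoproteins, all of these products take this route. Many genes of this route are known targets of the unfolded protein response, through the transcription factors XBP1 and ATF6.

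Most of these genes were lower in the special medium, with SEC11C of the signal peptidase, OSTC of the oligosaccharyltransferase and SEC61G of the Sec61 channel furthest down. Median log2 ratios were −1.36 for the Sec61 group, −1.004 for TRAP and TRAM, −0.73 for the signal peptidase, −0.72 for the oligosaccharyltransferase, −0.27 for the SRP and its receptor and −0.17 for the ER membrane protein complex. A gene is called lower or higher here when its ratio of scaled counts, special medium over KSFM, is at least 2-fold and its exact 95% interval excludes equality. By that rule 16 of 43 genes were lower and 0 were higher, against 6.77% lower and 9.86% higher of the 13632 genes at 1 CPM or more. The interval lay below equality, at any size, in 36 of the 43 genes, beside 36.7% of all genes, and above it in 3, beside 37.2%. With a 1.5-fold rule 25 were lower (16.1% of all genes), and with a 4-fold rule 1, SEC11C (1.19% of all genes). The median log2 ratio was −0.72 over the 43 genes and −0.00 over all 13632. Intervals cover counting error only, since the reads carry no molecular identifiers and can repeat a molecule, and cultures were not measured apart.

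On TPM as deposited, with 1 added to each value, the median of all genes lies at 0.15, and SEC61A1, SSR1, OST4 and EMC7 no longer reached 2-fold and 12 of the 16 genes did. Under all 8 scalings and trend corrections tried, 9 genes were past the rule: SRPRB, SEC61A2, SEC61B, SEC61G, SSR3, SSR4, SEC11C, SPCS1 and OSTC. On TPM only the 2-fold part of the rule applied, without an interval. The share of all genes past the rule is not at hand for these settings, so both counts are descriptions of the set alone.

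On the TPM scale, which adjusts for transcript length and so allows genes to be set side by side, the 43 genes summed to 10174 TPM in KSFM and 6398 TPM in the special medium. In KSFM the most abundant were DDOST at 710 TPM, SSR4 at 635, RPN2 at 619, SSR2 at 591 and RPN1 at 566. In the special medium the order began with SRP9 at 477 TPM, RPN2 at 446, DDOST at 403, RPN1 at 387 and SRP14 at 363. SEC61A2 was the least abundant in both, at 19.0 and 6.66 TPM. SRP9 thus moved from rank 9 to rank 1 and SSR4 from rank 2 to rank 9. The ratio of TPM between media still rose with transcript length over the 43 genes (Spearman's rho 0.37). Such shifts in rank are therefore not corrected for the length trend described further on. No spread over cultures is available for these levels, so close ranks cannot be separated.

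**Figure D1:**
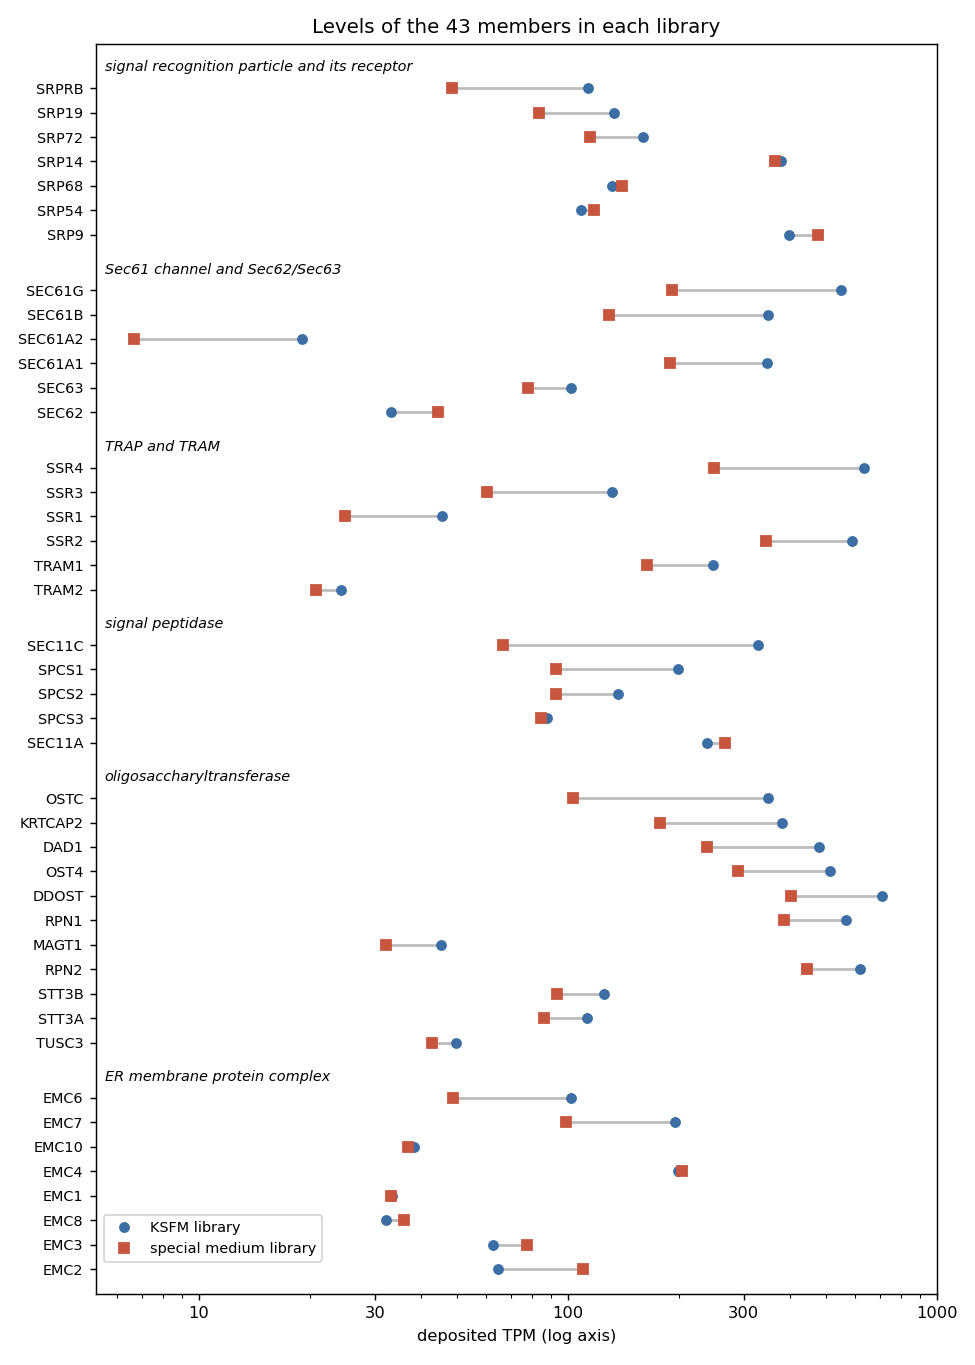
Deposited TPM on a log axis for each of the 43 genes, grouped by complex, with a circle for the KSFM library, a square for the special medium library and a grey line joining them. Most squares lie left of their circles, with the widest gap at SEC11C (328 and 66.6 TPM), whereas SRP9, SEC62, SEC11A and EMC2 are among the genes with the square to the right.

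Since many of these genes were lower together, their promoters were searched for letters known from the unfolded protein response. RefSeq windows (GRCh38.p14) from 250 bases before to 50 bases after each annotated start were at hand for 37 of the 43 genes. On either strand, GCCACGT, which holds the ACGT core of elements bound by XBP1, was present in windows of 9 of these 37 genes (24.3%), against 575 of the 10136 genes that had a window and reached 1 CPM, here called expressed genes (5.67%), and 3.21% of all windows. It was present in 6 of the 15 lower genes (SRPRB, SSR1, SSR3, SSR4, SEC11C and OSTC) and in 3 of the other 22 (SRP19, SEC63 and SPCS2). TGACGTGG, whose reverse strand shares the letters CCACGT with the first motif, was present in SRP19, SEC62, SSR3 and SSR4, against 1.23% of expressed genes. The ER stress elements in their strict forms, CCAAT and CCACG with 9 bases between, and ATTGG and CCACG with 1 base between, were in no window of the 37 genes and in 0.158% and 0.138% of expressed genes. A total of 6 patterns were tried, and GCCACGT was singled out after the matches had been seen, so its share describes these windows and supports nothing. Of the other patterns tried, CCACG alone was present in 22 of the 37 genes (59.5%) against 57.3% of expressed genes, and GCCACGT or CACGTCA in 11 (29.7%) against 8.23%. Genes with several annotated starts have several windows, and a match is a description of letters, not a binding site.

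The lines that follow show the matches in the 6 lower genes, because these include SEC11C and OSTC, which stood furthest below equality. Each is read 5′ to 3′ along the gene's own strand, and capitals mark the motif on either strand. SSR1 has a second match and SSR3 further ones near other starts. The matches shown for SEC11C, SSR4, SSR1 and SRPRB lie upstream of a RefSeq start but inside the GENCODE release 29 bounds of the gene, and those of OSTC and SSR3 lie outside them.
SEC11C, plus strand, chr18:59139833-59139859: gtcgccggtcACGTGGCcgcaaggacg
OSTC, plus strand, chr4:108650349-108650369: cttgGCCACGTtagaagtccc
SSR4, plus strand, chrX:153794528-153794554: tcagggagggGCCACGTcagtgctgcc
SSR1, minus strand, chr6:7313271-7313297: gcgctgagcaGCCACGTcggcggcggt
SSR3, minus strand, chr3:156555313-156555339: tgggtgggtcACGTGGCttgtcaggaa
SRPRB, plus strand, chr3:133805797-133805814: agagtgcaggGCCACGTc

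None of the 6 SRP protein genes passed 2-fold, while both genes of its receptor were lower. SRP9, which with SRP14 binds the Alu part of the SRP RNA and slows elongation, was at 397 TPM in KSFM and 477 TPM in the special medium, a count ratio of 1.05-fold (1.02 to 1.09). SRP14 was at 380 and 363 TPM, with a log2 count ratio of −0.27. SRP54, the GTPase that grips the signal sequence, was at 109 and 118 TPM, and its interval spanned equality (log2 −0.06, from −0.14 to 0.02). SRP68 had a log2 ratio of −0.09, SRP72, its partner, −0.64 and SRP19, which helps assemble the particle, −0.87. SRPRB, the membrane anchor of the receptor, was at 113 TPM in KSFM and 48.4 TPM in the special medium and was 2.63-fold lower (2.46 to 2.82). SRPRA, the other receptor subunit and not among the 43, was at 187 and 94.1 TPM and 2.23-fold lower (2.12 to 2.34). On TPM as deposited SRPRA fell just short of 2-fold (log2 −0.99). That scale is not centred, and with 1 added to each value the median of all genes lies at 0.15.

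All genes of the Sec61 channel were lower, and on counts the small subunits by more than the pore. SEC61A1, the pore-forming subunit, was at 347 TPM in KSFM and 189 TPM in the special medium, 2.06-fold lower (1.99 to 2.12). SEC61B, a single-span subunit, was at 349 and 129 TPM, 3.28-fold lower (2.96 to 3.64). SEC61G, the other single-span subunit, was at 551 and 192 TPM, 3.56-fold lower (3.24 to 3.92). With the length trend described further on removed, the order was reversed, at log2 ratios of −1.20 for SEC61A1, −1.11 for SEC61B and −1.04 for SEC61G. In KSFM the TPM of SEC61G was above those of the other subunits, and in the special medium it was near that of SEC61A1. SEC61A2, a paralog of the pore subunit, had 538 and 132 counts and was 3.20-fold lower (2.64 to 3.90).

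SEC62 and SEC63, which join the channel for substrates that arrive after synthesis and bring the chaperone BiP to it, did not reach 2-fold. SEC62 was at 33.1 TPM in KSFM and 44.4 TPM in the special medium, a log2 count ratio of 0.27 (0.18 to 0.35). SEC63 was at 102 and 78.0 TPM, a log2 ratio of −0.54 (−0.60 to −0.49). SEC62 was 1 of the 3 genes whose interval lay above equality.

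TRAP, the complex of SSR1 to SSR4 that sits beside the channel and helps weak signal sequences, was lower in each of its subunits. SSR4 was at 635 TPM in KSFM and 250 TPM in the special medium, 3.03-fold lower (2.84 to 3.22). SSR3 was at 132 and 60.6 TPM, 2.43-fold lower (2.31 to 2.55). SSR1 and SSR2 lay on either side of the threshold, at log2 ratios of −1.03 (−1.10 to −0.95) and −0.98 (−1.04 to −0.92). TRAM1, a membrane protein that contacts chains as they enter the bilayer, was at 248 and 164 TPM and 1.70-fold lower, and its scarcer paralog TRAM2, at 24.3 and 20.8 TPM, 1.30-fold lower. The genes nearest the threshold in the whole set were SSR1 and SEC61A1 (log2 −1.04) just past it, and DDOST (log2 −0.99) and SSR2 just short of it.

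**Figure D2:**
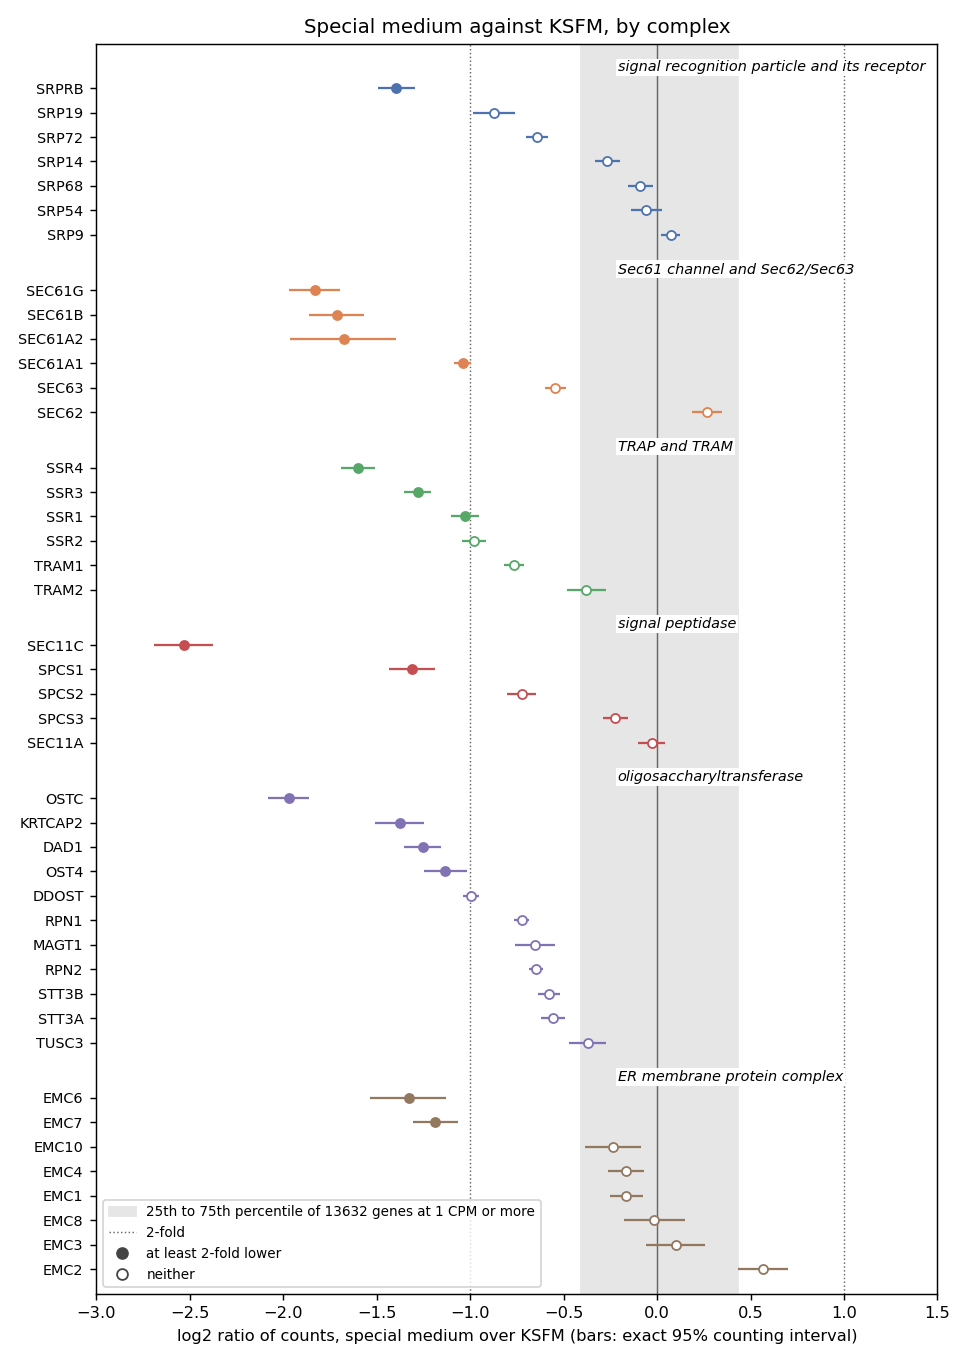
Log2 ratio of scaled counts, special medium over KSFM, for the 43 genes by complex, with exact 95% counting intervals, filled points for genes at least 2-fold lower and a grey band from the 25th to the 75th percentile of all 13632 genes. SEC11C (−2.53), OSTC (−1.97) and SEC61G (−1.83) lie furthest left, and most SRP and ER membrane protein complex genes lie in or near the band.

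The signal peptidase held the widest contrast, between its alternative catalytic subunits. SEC11C was at 328 TPM in KSFM and 66.6 TPM in the special medium, on 2802 and 380 counts, and was 5.78-fold lower (5.19 to 6.45). SEC11A, which can take its place in the complex, was at 239 and 267 TPM, and its interval spanned equality (log2 count ratio −0.03, from −0.10 to 0.04). SEC11C therefore made up 57.9% of the TPM of the pair in KSFM and 19.97% in the special medium, and the summed TPM of the pair went from 567 to 333. The ratio of SEC11C to SEC11A counts, which needs no library scaling, was 5.67-fold lower in the special medium (5.03 to 6.39). This ratio is not corrected for the length trend, and with that trend removed the log2 ratios were −2.21 for SEC11C and 0.02 for SEC11A. On GRCh38, in GENCODE release 29, exons of neither gene overlap those of another gene.

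The accessory subunits of the peptidase lay between these extremes. SPCS1, a small membrane subunit, was at 199 TPM in KSFM and 92.8 TPM in the special medium, 2.48-fold lower (2.28 to 2.70). SPCS2 was at 136 and 92.9 TPM, 1.65-fold lower. SPCS3, the subunit that the complex needs for activity, was at 88.1 and 84.4 TPM, 1.17-fold lower (1.11 to 1.22). SPCS3 and SEC11A were thus the genes of this complex with the smallest differences.

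Every one of the 11 oligosaccharyltransferase genes had an interval below equality, and 4 passed 2-fold. STT3A and STT3B, the alternative catalytic subunits of the cotranslational and the later-acting enzyme, were lower by similar amounts. STT3A was at 113 and 86.1 TPM and STT3B at 125 and 93.7 TPM, 1.47-fold and 1.49-fold lower. The log2 ratio of STT3A to STT3B differed between media by 0.02 (−0.07 to 0.11), so a difference in balance of more than 0.11 lies outside its counting interval.

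The accessory subunits of the 2 enzyme forms were lower by unequal amounts. OSTC, which couples the STT3A form to the channel, was at 350 TPM in KSFM and 103 TPM in the special medium, 3.92-fold lower (3.63 to 4.23). KRTCAP2, the other subunit of that form, was at 380 and 178 TPM, 2.60-fold lower (2.37 to 2.85). The oxidoreductase subunits of the STT3B form were lower by less on counts, TUSC3 at 49.9 and 42.96 TPM by 1.29-fold (1.21 to 1.39) and MAGT1 at 45.2 and 32.2 TPM by 1.57-fold (1.46 to 1.70). With the length trend removed this order did not hold, at log2 ratios of −0.81 for MAGT1, −0.75 for KRTCAP2, −0.53 for TUSC3 and −1.81 for OSTC. The ratio of TUSC3 to MAGT1 was 1.22-fold higher in the special medium (1.10 to 1.35).

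Of the subunits that both forms share, the small ones passed 2-fold on counts and the large ones did not, although with the length trend removed DDOST (log2 −1.08) was below DAD1 (−0.82) and OST4 (−0.39). DAD1 was at 480 TPM in KSFM and 239 TPM in the special medium, 2.38-fold lower (2.23 to 2.55). OST4, a very small subunit that steadies the catalytic one, was at 514 and 289 TPM, 2.19-fold lower (2.03 to 2.37). TMEM258, a further small shared subunit and not among the 43, was at 975 and 334 TPM, 3.71-fold lower (3.43 to 4.01), and with the length trend removed it no longer passed 2-fold (log2 −0.96). The large subunits were DDOST, 1.99-fold lower (1.94 to 2.05), RPN1, 1.65-fold lower (1.61 to 1.70), and RPN2, 1.56-fold lower (1.52 to 1.61). These 3 carry 6662 to 17516 counts each, so their counting intervals are narrow.

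The ER membrane protein complex split into 2 lower genes and 6 that did not pass 2-fold. EMC6, which with EMC3 forms the insertase core in the membrane, was at 102 TPM in KSFM and 49.0 TPM in the special medium, 2.51-fold lower (2.19 to 2.90). EMC7, a subunit facing the lumen, was at 195.5 and 99.2 TPM, 2.28-fold lower (2.10 to 2.48). With the length trend removed EMC6 no longer passed 2-fold (log2 −0.99), while EMC7 did (−1.01). On TPM as deposited, a scale that is not centred, EMC7 no longer passed (−0.98), while EMC6 did (−1.06). EMC3 was at 62.6 and 77.4 TPM, and its interval spanned equality (log2 count ratio 0.10, from −0.06 to 0.26). EMC2, a cytosolic scaffold, was at 64.9 and 110 TPM, 1.48-fold higher (1.35 to 1.62), the highest ratio among the 43. EMC1, EMC4 and EMC10 had log2 count ratios of −0.16, −0.17 and −0.23.

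EMC8 and its paralog EMC9 occupy the same place in the complex. EMC8 was at 32.2 TPM in KSFM and 36.1 TPM in the special medium, with an interval that spanned equality (log2 count ratio −0.02, from −0.18 to 0.15). EMC9, not among the 43, was at 62.0 and 32.9 TPM and 2.21-fold lower (1.87 to 2.61). EMC9 no longer passed 2-fold on TPM as deposited (log2 −0.91) or with the length trend removed (−0.84, against −0.08 for EMC8). The TPM ratio is not centred, and with 1 added to each value the median of all genes lies at 0.15. EMC9 made up 65.8% of the TPM of the pair in KSFM and 47.7% in the special medium, and the ratio of EMC9 to EMC8 counts was 2.18-fold lower (1.78 to 2.68).

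**Figure D3:**
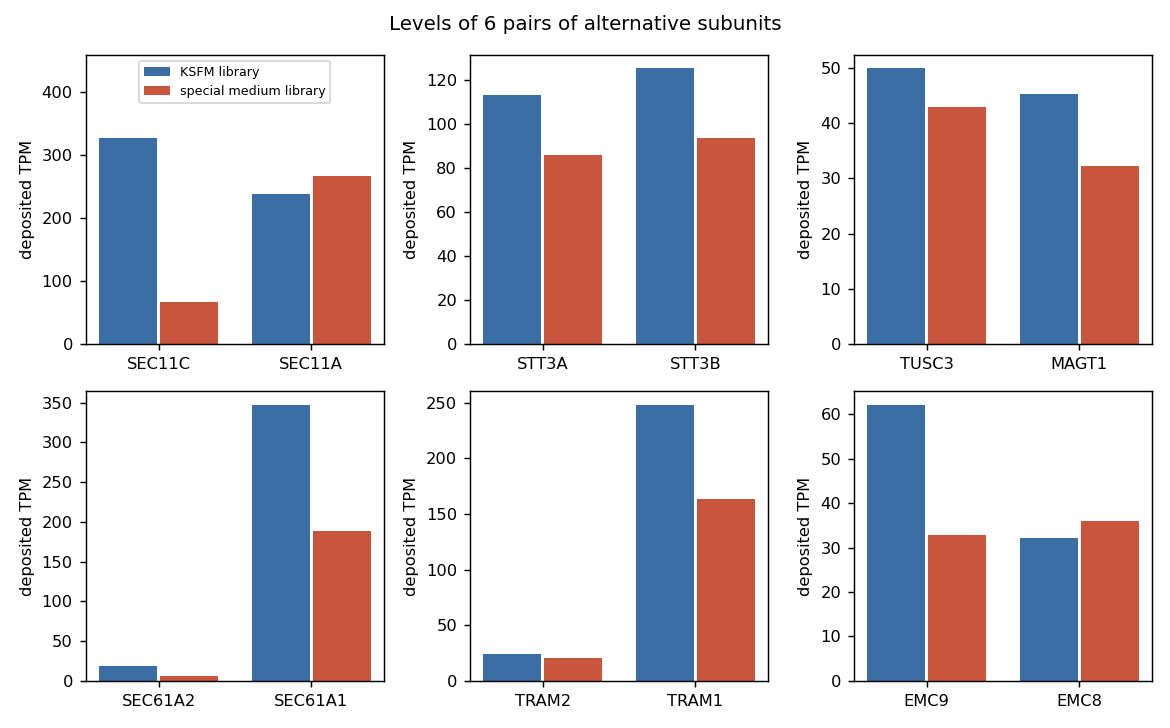
Deposited TPM of 6 pairs of paralogs, with blue bars for the KSFM library and red bars for the special medium library. SEC11C and EMC9 are lower while their partners SEC11A and EMC8 are not, whereas STT3A and STT3B are lower together.

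Across the 6 pairs compared, SEC11C against SEC11A differed most between media and STT3A against STT3B least. The ratio of SEC61A2 to SEC61A1 was 1.55-fold lower in the special medium (1.28 to 1.90), and SEC61A2 was 5.20% and 3.40% of the TPM of that pair. The ratio of TRAM2 to TRAM1 was 1.31-fold higher (1.20 to 1.42), and TRAM2 was 8.93% and 11.3% of the TPM of its pair. In 5 of the 6 pairs the counting interval of this ratio of ratios excluded equality, the exception being STT3A against STT3B. For single genes, 36.7% of all 13632 had an interval below equality and 37.2% above it. The count of pairs is therefore a description and not a result about paralogs.

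Genes of short transcripts tended to be lower in these libraries as a whole, and many of the lowest genes here are short. Effective length was taken as estimated count per TPM and set against the median gene, which gives 0.124 for SEC61G, 0.130 for OST4, 0.152 for KRTCAP2, 0.157 for SEC61B, 0.248 for SEC11C and 0.337 for OSTC. In the shortest twentieth of all genes 25.2% of 682 genes were at least 2-fold lower, with a median log2 ratio of −0.57. The 8 genes of the set in that twentieth (SEC61B, SEC61G, SSR4, SEC11C, DAD1, OST4, KRTCAP2 and EMC6) were all past the rule, with a median of −1.49. The median relative length of that twentieth was 0.229. SEC61G, OST4, KRTCAP2, SEC61B, DAD1 and SSR4 were shorter than that, and SEC11C and EMC6 were longer. The share of 25.2% is therefore not closely matched to them in length. In the next twentieth 12.6% of 682 genes were lower, and 3 of 8 genes of the set. In the other 18 twentieths 5.42% of 12268 genes were lower, and 5 of 27 genes of the set, at a median of −0.58 against 0.03.

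Spearman's rho of log2 ratio with effective length was 0.41 over the 43 genes and 0.15 over all 13632, where all points come from the same 2 libraries. With the TPM ratio in place of the count ratio, rho was 0.37 over the 43 genes. After removal of a smooth trend of the ratio on length over all genes, the median of the 43 was −0.80, against −0.08 for all genes. SEC11C was then at −2.21, OSTC at −1.81, SEC61A2 at −1.79, SRPRB at −1.53 and SSR3 at −1.44. SEC61B and SEC61G remained past 2-fold, at −1.11 and −1.04. OST4 at −0.39, KRTCAP2 at −0.75, DAD1 at −0.82 and EMC6 at −0.99 no longer passed, and DDOST at −1.08 did. What part RNA quality, fragment size or other features of the 2 libraries play in this relation was not tested.

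**Figure D4:**
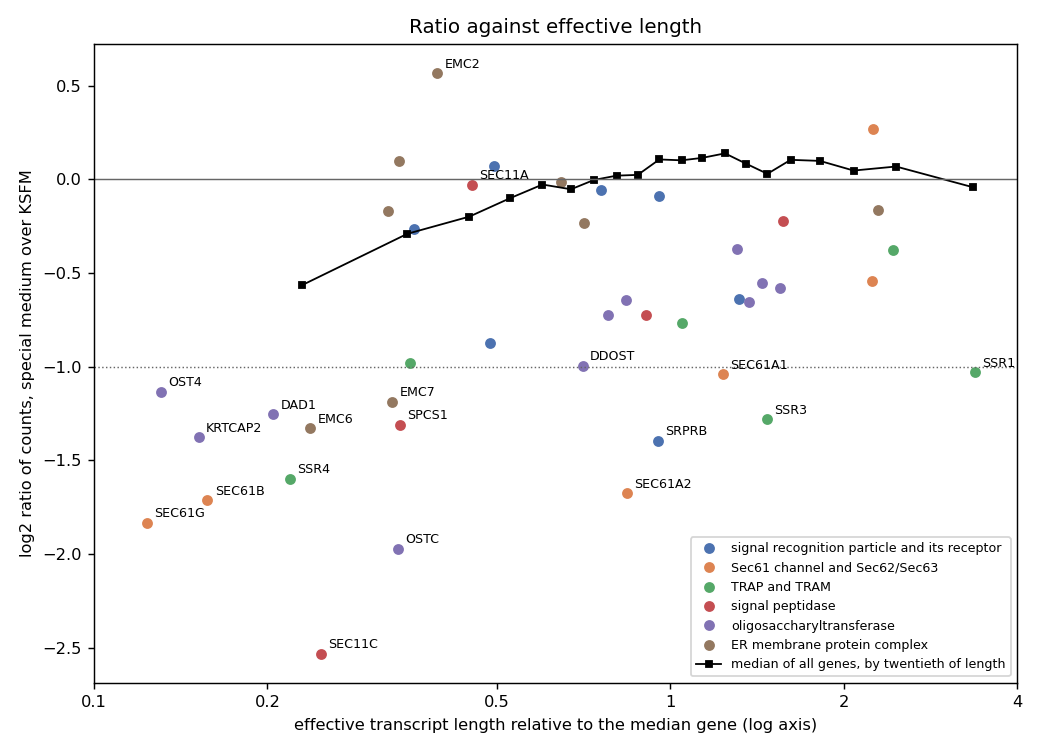
Log2 ratio of scaled counts against effective transcript length relative to the median gene (log axis), with the 43 genes coloured by complex and black squares for the median of all genes in each twentieth of length. The black line drops to −0.57 at the short end, and SEC11C, OSTC, SRPRB and SEC61A2 are among the genes more than 1 unit below it. SEC61G, OST4, KRTCAP2, SEC61B, DAD1 and SSR4 lie left of the point where the line begins.

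Other genes of the same route, drawn from 7 lists, were mostly lower by less. Of 72 listed genes 71 were found, 13 were at least 2-fold lower and 0 higher, and the median log2 ratio was −0.45, beside the 6.77% lower and 9.86% higher of all genes. A single lower gene in a list of 7 or 8 is not a result about that list. Of the 4 subunits that complete the complexes above, SRPRA, EMC9 and TMEM258 were lower and MMGT1 was neither (list median −1.15). Of 8 genes of the multipass translocon, which assists proteins with many membrane spans, 1 was lower (median −0.58), TMEM147 at 2.10-fold (1.94 to 2.27). Of 7 genes found for insertion of tail-anchored and other proteins without the SRP, 1 was lower (median −0.06), TMEM208 at 2.03-fold (1.82 to 2.27). Both calls ended with the length trend removed, at log2 ratios of −0.81 for TMEM147 and −0.69 for TMEM208. They also ended on TPM as deposited, at −0.85 and −0.79. That scale is not centred, and with 1 added to each value the median of all genes lies at 0.15.

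Of 8 genes that act on chains at the channel, 3 were lower (median −0.50). HSPA5, which encodes BiP, the chaperone that pulls and folds chains in the lumen, was at 2066 TPM in KSFM and 520 TPM in the special medium, 4.45-fold lower (4.38 to 4.52). Its nucleotide exchange factors SIL1 and HYOU1 were 2.79-fold (2.57 to 3.04) and 2.71-fold lower (2.61 to 2.81). The other 5 genes of that list, which include the chain-binding pair NACA and BTF3, did not pass 2-fold.

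The sugar donor of the oligosaccharyltransferase is made by a separate set of enzymes, and of 26 such genes 2 were lower (median −0.39), a share near that of all genes. GMPPB, which makes the mannose donor GDP-mannose, was at 74.3 TPM in KSFM and 28.7 TPM in the special medium, 2.94-fold lower (2.62 to 3.32). Of 8 genes that trim or read the sugar after transfer, 1 was lower (median −0.08), the lectin chaperone CANX at 876 and 428 TPM, 2.29-fold (2.25 to 2.33). Of 10 transducers and effectors of the unfolded protein response 2 were lower (median −0.61). These were HERPUD1, a membrane protein of ER-associated degradation, 2.72-fold lower (2.56 to 2.89), and ERN1, which encodes the sensor IRE1, 2.29-fold lower (1.96 to 2.69). XBP1 and ATF6 did not pass 2-fold, at log2 ratios of −0.67 (−0.72 to −0.62) and −0.13 (−0.22 to −0.03). ATF4 (0.07) and ATF6B (0.42) had intervals above equality, and the other 8 genes of the list had intervals below it.

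Read assignment limits some of these values. In GENCODE release 29, 20 of the 43 genes share exon bases with a gene on the opposite strand, among them SSR4, SPCS1, OST4 and EMC6, and 7 with a gene on the same strand, among them SRPRB, SSR1 and KRTCAP2. Whether the counting used strand is not given in the sources used here. Named pseudogenes are annotated for 9 genes, with 6 for OSTC and 4 each for SRP14 and SPCS2, and 7 genes carry fractional estimates, SRP19, SSR1 and SSR3 among them. SEC11C (ENSG00000166562) spans chromosome 18 from 59139477 to 59158836, OSTC (ENSG00000198856) chromosome 4 from 108650584 to 108667820 and SEC61G (ENSG00000132432) chromosome 7 from 54752250 to 54759974 on GRCh38.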

How the data were processed

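Members and gene lists were chosen with earlier results of these data known. Tools named in the submitters' processing notes are HISAT2 2.1.0, RSEM, fastp 0.20.0 and FastQC 0.11.9, with GRCh38 as build; the sources used here do not give their order, the annotation or the use of strand. The authors deposited estimated counts per gene and, separately, TPM values, both from RNA pooled over 3 cultures.

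Estimated counts were rounded, and library sizes multiplied by TMM factors (0.999 for KSFM, 1.00 for special medium; edgeR 4.0.16). Each ratio has an exact conditional (Clopper-Pearson) 95% interval; a typical member's reaches 0.09 log2 to either side. Ratios of paralog ratios have exact conditional odds ratio intervals. The code was tested on simulated data. Genes were named as all 43 members, and from each pathway list up to 3 genes past the 2-fold rule with the largest ratios, or the 2 most abundant; other names were chosen after values were seen. The values of 1 gene that this rule picks are not reported here. GET1 was left out, having no single match in the tables. Alternatives were scaling by total count, upper quartile or DESeq2 1.42.0; TPM plus 1 or plus 0.1, and centred; no filter or 10 CPM; 1.5-fold and 4-fold rules; intervals wholly past 2-fold; and a cubic length trend (effective length as mean of both libraries). A length and GC trend and TPM ratios of paralogs were added after seeing the data. The promoter motifs shown were also chosen after their matches were seen, and the split of genes into twentieths of effective length replaced a coarser split after its values were seen. Software was Python 3.11.15 (scipy 1.17.1, numpy 2.4.6, matplotlib 3.10.9, pandas 2.3.3) and R 4.3.3.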

Additional observations from a re-analysis of the deposited data

How the results depend on the processing

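No paired analysis was possible because each medium has 1 library. The count of 16 lower genes became 25 with a 1.5-fold rule and 1 with a 4-fold rule, and stayed between 12 and 18 under every other alternative, with 0 higher in each. The 13 lower genes of the other pathway lists became 29 and 1 with those rules and 8 on TPM with a pseudocount of 1. The median log2 ratio of −0.72 became −0.55 on TPM with either pseudocount, a scale on which the median of all genes lies at 0.15 and 0.16, and −0.84 with the length and GC trend removed. No called gene changed direction under any of the alternatives run. Calls lost were SEC61A1, SSR1, OST4 and EMC7 on TPM, SSR1 and OST4 on centred TPM, DAD1, OST4, KRTCAP2 and EMC6 with the length trend removed (EMC6 was kept when GC was added), and SEC61A1 and SSR1 where the whole interval had to lie past 2-fold. SEC61A1 and EMC7 were past 2-fold once TPM was centred, at log2 ratios of −1.02 and −1.12. Apart from the centring, the trend corrections and the fold and interval rules, which set these changes by construction, the cause was not tested. Depth limits SEC61A2 most, at 132 counts in the special medium.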
